A study of Mus musculus with 12 samples.

Results

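HOX genes encode homeodomain transcription factors that specify position along the body axis and the limb, and the mouse carries them in 4 clusters, HoxA, HoxB, HoxC and HoxD. The members described here are all regions of open chromatin that the deposited table lists with a HOX gene of these clusters: 44 of 81995 regions, listed with 26 of the 39 coding HOX genes in RefSeq. HoxA has 17 such regions on 8 of 11 genes, HoxB 7 regions on 5 of 10, HoxC 12 regions on 8 of 9 and HoxD 8 regions on 5 of 9. The 13 genes with no listed region were Hoxa2, Hoxa5, Hoxa6, Hoxb1, Hoxb2, Hoxb4, Hoxb9, Hoxb13, Hoxc13, Hoxd1, Hoxd3, Hoxd9 and Hoxd10. All 44 regions passed the filter on low values.

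Genes of a HOX cluster lie in the order of the body level at which they act, with paralog 1 at the 3′ end and paralog 13 at the 5′ end. Low paralog numbers act toward the head and high numbers toward the tail and the tips of the limbs. Polycomb complexes keep silent HOX genes in compact chromatin, trithorax complexes keep active ones open, and fibroblasts hold a HOX pattern that reflects the body site they came from. Paralogs 1 to 4 are called anterior below, 5 to 8 central and 9 to 13 posterior, by the gene listed for a region.

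The assay was ATAC-seq, which uses the transposase Tn5 to insert sequencing tags where DNA is accessible, and the cells were NIH/3T3, an immortal mouse embryo fibroblast line, with 3 biological replicates in each of 4 groups. The wild type (WT) has intact Actg1, the gamma-actin gene; PTC1 carries c.280_281insT on one allele and, on another, the same insertion together with 280A>G, which puts a premature stop in exon 3. The allele of PTC2 is Actg1-202:r.1096_1097insn[4036], whose premature stop is in exon 5, and LD lacks the full Actg1 locus. All 4 groups share the cell line and the protocol (25000 cells per sample, 37 °C for 30 min), the series asks about mRNA degradation in transcriptional adaptation, and the labels name no separate clones of an allele. The p-values therefore measure the spread between these samples, and what belongs to an allele and what to a line that carries it cannot be told apart. ATAC-seq on a pool of cells also does not separate a change in every cell from a change in the share of cells with an open region.

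Normalized read counts summed to 31.29 to 34.8 M per library. Actg1 itself was not analysed here, so the genotype labels have no check in these values. Over all tested regions the median log2 change against WT was 0.01 in PTC1, 0.02 in PTC2 and 0.01 in LD, while single chromosomes departed from it by more. Among fibroblast marker genes 13 of 14 were measured, and their summed level ranged over 20062 to 20960 in WT, 18928 to 19435 in PTC1, 21136 to 23104 in PTC2 and 19998 to 21576 in LD. Of 6 epithelial markers 2 were measured (sum 399 to 546 over all libraries). The neural markers, 3 of 6 measured, summed to 1947 to 2098 in PTC1 against 826 to 908 in WT, 601 to 666 in PTC2 and 780 to 827 in LD. In PTC1, Sox2 went from a mean of 23 to 1025 and Syt1 from 32.7 to 464, while Tubb3 went from 824 to 511. Endothelial markers, 4 of 6 measured, summed to 622 to 724 in WT, 960 to 1035 in PTC1, 1067 to 1132 in PTC2 and 669 to 822 in LD. The genes behind the PTC2 sum did not move together: Erg rose from a mean of 424 to 881.7, while Tek fell from 103 to 44. Over the 4 genes the median log2 change of PTC2 was -0.05. Blood markers (5 of 6) ranged from 945 to 1159 and muscle markers (4 of 6) from 157 to 313 over all libraries. No measured marker gene of these lists was at 0 in a group mean, and their part in the HOX results was not tested.

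The sequences below are the RefSeq promoters (GRCm38.p6, 250 bases before to 50 after the start site) of 5 start sites, chosen from those that lie wholly within HOX regions called in at least 1 comparison because their values are described below. Hoxa3, Hoxa11 and Hoxa13 (45 CG) also lie wholly within such regions and are not printed. They read 5′ to 3′, with each CG dinucleotide in capitals. Clusters of CG mark CpG islands, where Polycomb complexes are recruited.
Hoxd13, chr2:74667975-74668274, plus strand: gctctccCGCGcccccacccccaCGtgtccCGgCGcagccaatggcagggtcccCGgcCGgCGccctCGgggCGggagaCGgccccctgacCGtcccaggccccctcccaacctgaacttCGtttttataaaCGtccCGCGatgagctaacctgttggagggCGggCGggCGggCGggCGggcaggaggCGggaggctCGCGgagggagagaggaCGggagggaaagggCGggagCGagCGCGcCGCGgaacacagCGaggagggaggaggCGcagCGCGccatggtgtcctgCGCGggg
Hoxd11, upstream start, chr2:74679308-74679607, plus strand: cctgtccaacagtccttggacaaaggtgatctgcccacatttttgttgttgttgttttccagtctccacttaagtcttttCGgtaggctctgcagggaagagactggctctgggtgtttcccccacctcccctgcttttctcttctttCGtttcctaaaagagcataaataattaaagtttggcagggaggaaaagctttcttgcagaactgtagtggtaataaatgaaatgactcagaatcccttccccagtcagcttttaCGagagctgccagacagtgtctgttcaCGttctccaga
Hoxd11, internal start, chr2:74682073-74682372, plus strand: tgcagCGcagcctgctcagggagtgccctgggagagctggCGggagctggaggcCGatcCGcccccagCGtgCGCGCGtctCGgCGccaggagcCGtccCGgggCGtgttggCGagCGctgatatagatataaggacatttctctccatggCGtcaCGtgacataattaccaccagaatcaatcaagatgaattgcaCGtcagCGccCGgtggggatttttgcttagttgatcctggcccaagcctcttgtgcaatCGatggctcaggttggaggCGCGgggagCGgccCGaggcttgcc
Hoxd3, chr2:74711743-74712042, plus strand: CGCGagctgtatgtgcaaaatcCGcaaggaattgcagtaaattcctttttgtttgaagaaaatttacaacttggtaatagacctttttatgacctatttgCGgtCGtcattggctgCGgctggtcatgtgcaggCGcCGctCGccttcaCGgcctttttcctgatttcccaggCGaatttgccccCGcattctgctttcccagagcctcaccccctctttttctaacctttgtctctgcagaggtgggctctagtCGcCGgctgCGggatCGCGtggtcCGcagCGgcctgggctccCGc
Hottip, chr6:52262525-52262824, plus strand: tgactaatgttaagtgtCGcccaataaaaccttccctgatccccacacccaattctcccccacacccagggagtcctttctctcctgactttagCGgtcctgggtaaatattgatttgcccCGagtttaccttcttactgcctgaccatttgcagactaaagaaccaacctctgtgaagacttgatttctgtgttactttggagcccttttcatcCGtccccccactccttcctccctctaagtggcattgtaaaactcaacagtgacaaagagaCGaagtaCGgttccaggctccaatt
The promoter of Hoxd13, the most posterior HoxD gene, held 37 CG, the internal Hoxd11 start 25 and the Hoxd3 start 20. The upstream Hoxd11 start held 4 and Hottip, a long non-coding RNA next to Hoxa13, held 6. RefSeq promoters were given for 13 of the 26 listed genes and for 24 HOX start sites in all. Those 24 held a median of 14.5 CG (4 to 45), against a median of 7 over 32851 mouse promoters. The letters TGATNNAT, a core bound by HOX proteins together with PBX cofactors, were searched on both strands. They were present in 4 of the 24 HOX promoters and in 8.85% of all promoters. In the internal Hoxd11 promoter such a match began at position -73 from the start site, and a TAATTA match, present in 5.29% of all promoters, began at -87. A match is a run of letters and no evidence of binding.

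In WT cells HoxA and HoxD had high values and HoxB and HoxC low ones. Per kb of region, the summed normalized read count in WT was 885.9 in HoxA, 635 in HoxD, 82.05 in HoxB and 59.23 in HoxC. The file's own start site lay inside a region for 6 HoxA genes, for Hoxd4, Hoxd11 and Hoxd13, and in the B and C clusters for Hoxb6 and Hoxc6 alone. Summed over its regions, HoxA held 14429.7 ± 180 (SD, n = 3, as for all sums here) in WT and 15505.3 ± 503 with PTC1, against 17871.7 ± 1452 with PTC2 and 11046.7 ± 447 in the LD libraries. HoxD held 5509 ± 194, 5605 ± 172, 4991 ± 235 and 5341 ± 280 in the same order. The HoxB sums were 234.7 ± 59.4, 606.3 ± 70 in PTC1, 337.3 ± 61.6 and 336 ± 14.2. For HoxC the sums were 355.3 ± 55.9 in WT, 2819.7 ± 154 with PTC1, 886.7 ± 53.6 with PTC2 and 348.3 ± 21.9 in the LD libraries. The HoxC sum was thus 7.94 times the WT sum in PTC1, 2.5 times in PTC2 and 0.98 times in LD.

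**Figure D1:**
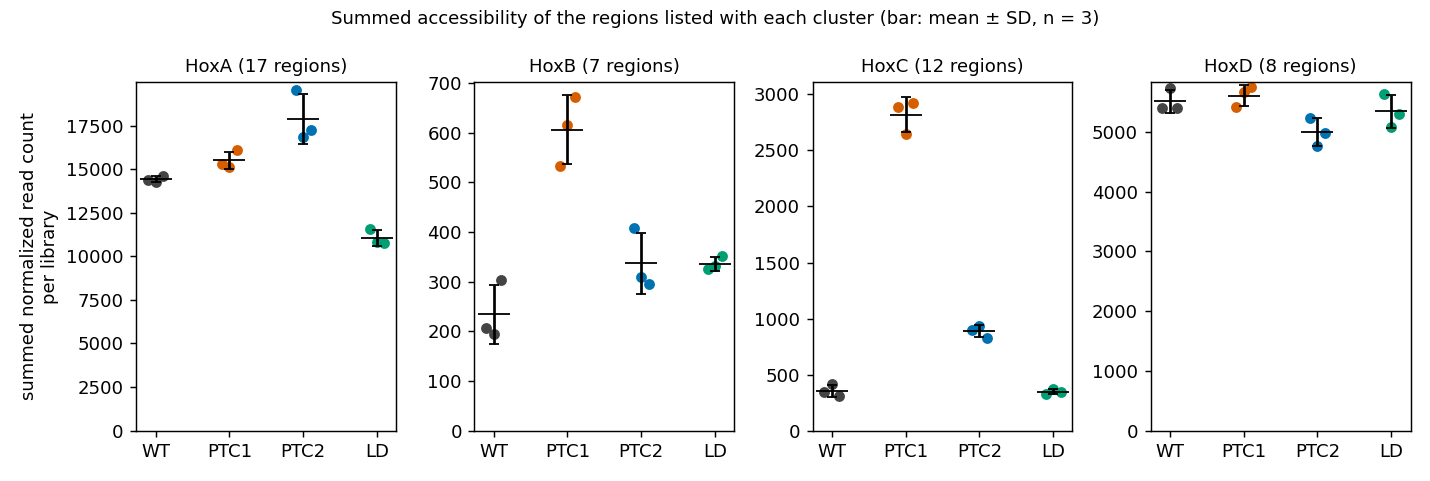
Summed normalized read count of the regions listed with each cluster (vertical axis, from 0), by group, with 1 point per library and the mean ± SD (n = 3). HoxC libraries of PTC1 stand far above the other groups, whereas HoxA is highest in PTC2 and lowest in LD, and the HoxD groups lie close together.

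Against WT, more HOX regions rose than fell in both premature stop groups, and more fell than rose in LD. A region is called here where its limma p, adjusted by Benjamini-Hochberg across the 81985 tested regions, is under 0.05. By that rule 26 HOX regions were called higher in PTC1 (30.6% of all regions) and 6 lower (31.2% of all). In PTC2, 25 were called higher (28.4% of all) and 2 lower (29.8% of all). In LD, 9 were called higher (22.6% of all) and 18 lower (24.7% of all). Median log2 changes of the 44 regions were 0.52 in PTC1, 0.41 in PTC2 and -0.27 in LD. These 3 comparisons share the WT libraries. Taking for each gene the 1 region closest to its start, 17 of the 26 HOX genes were higher and 2 lower in PTC1, against 33.3% and 28.5% of 12337 genes. The same reading gave 16 higher and 1 lower in PTC2 (37.4% and 16.3% of genes), and 6 higher and 10 lower in LD (16.9% and 29.5%).

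Compared directly, PTC1 exceeded PTC2 at 20 HOX regions (31.6% of all regions) and was below it at 11 (30.9% of all). The mean of both premature stop groups exceeded LD at 31 HOX regions (32.1% of all) and was below it at 5 (32.6% of all). Behind these totals the 4 clusters differed, and each is described from its 3′ to its 5′ end.

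**Figure D2:**
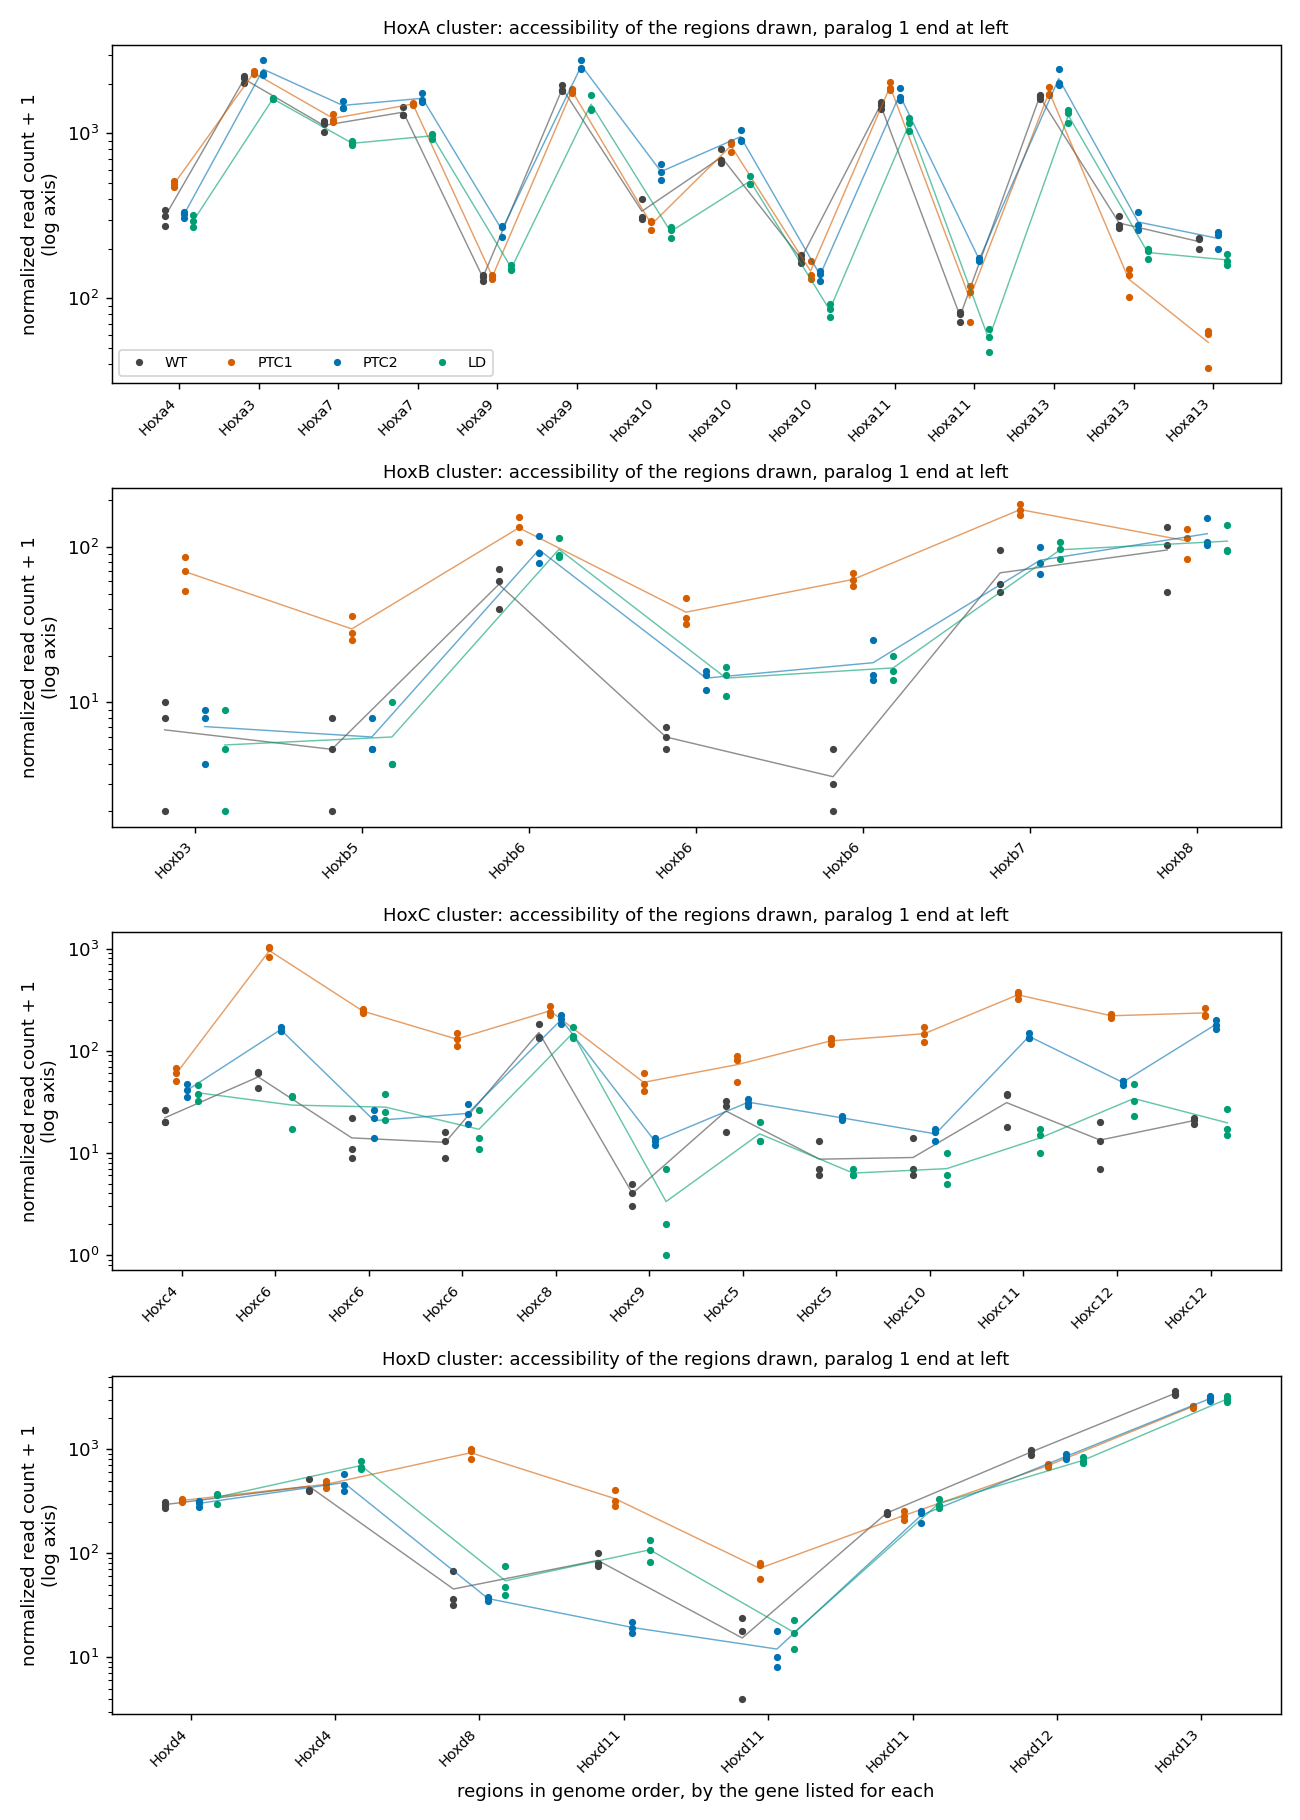
Normalized read count plus 1 (log axis) of HOX regions (those of 1 HoxA gene not drawn) in each of the 12 libraries, in genome order with the lowest paralog at left and the gene listed for each region on the horizontal axis. Lines join group means; PTC1 lies above the other groups along HoxC, over most of HoxB and at Hoxd8, while at HoxA the largest gap is that of PTC1 below the rest at the outermost Hoxa13 region.

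**Figure D3:**
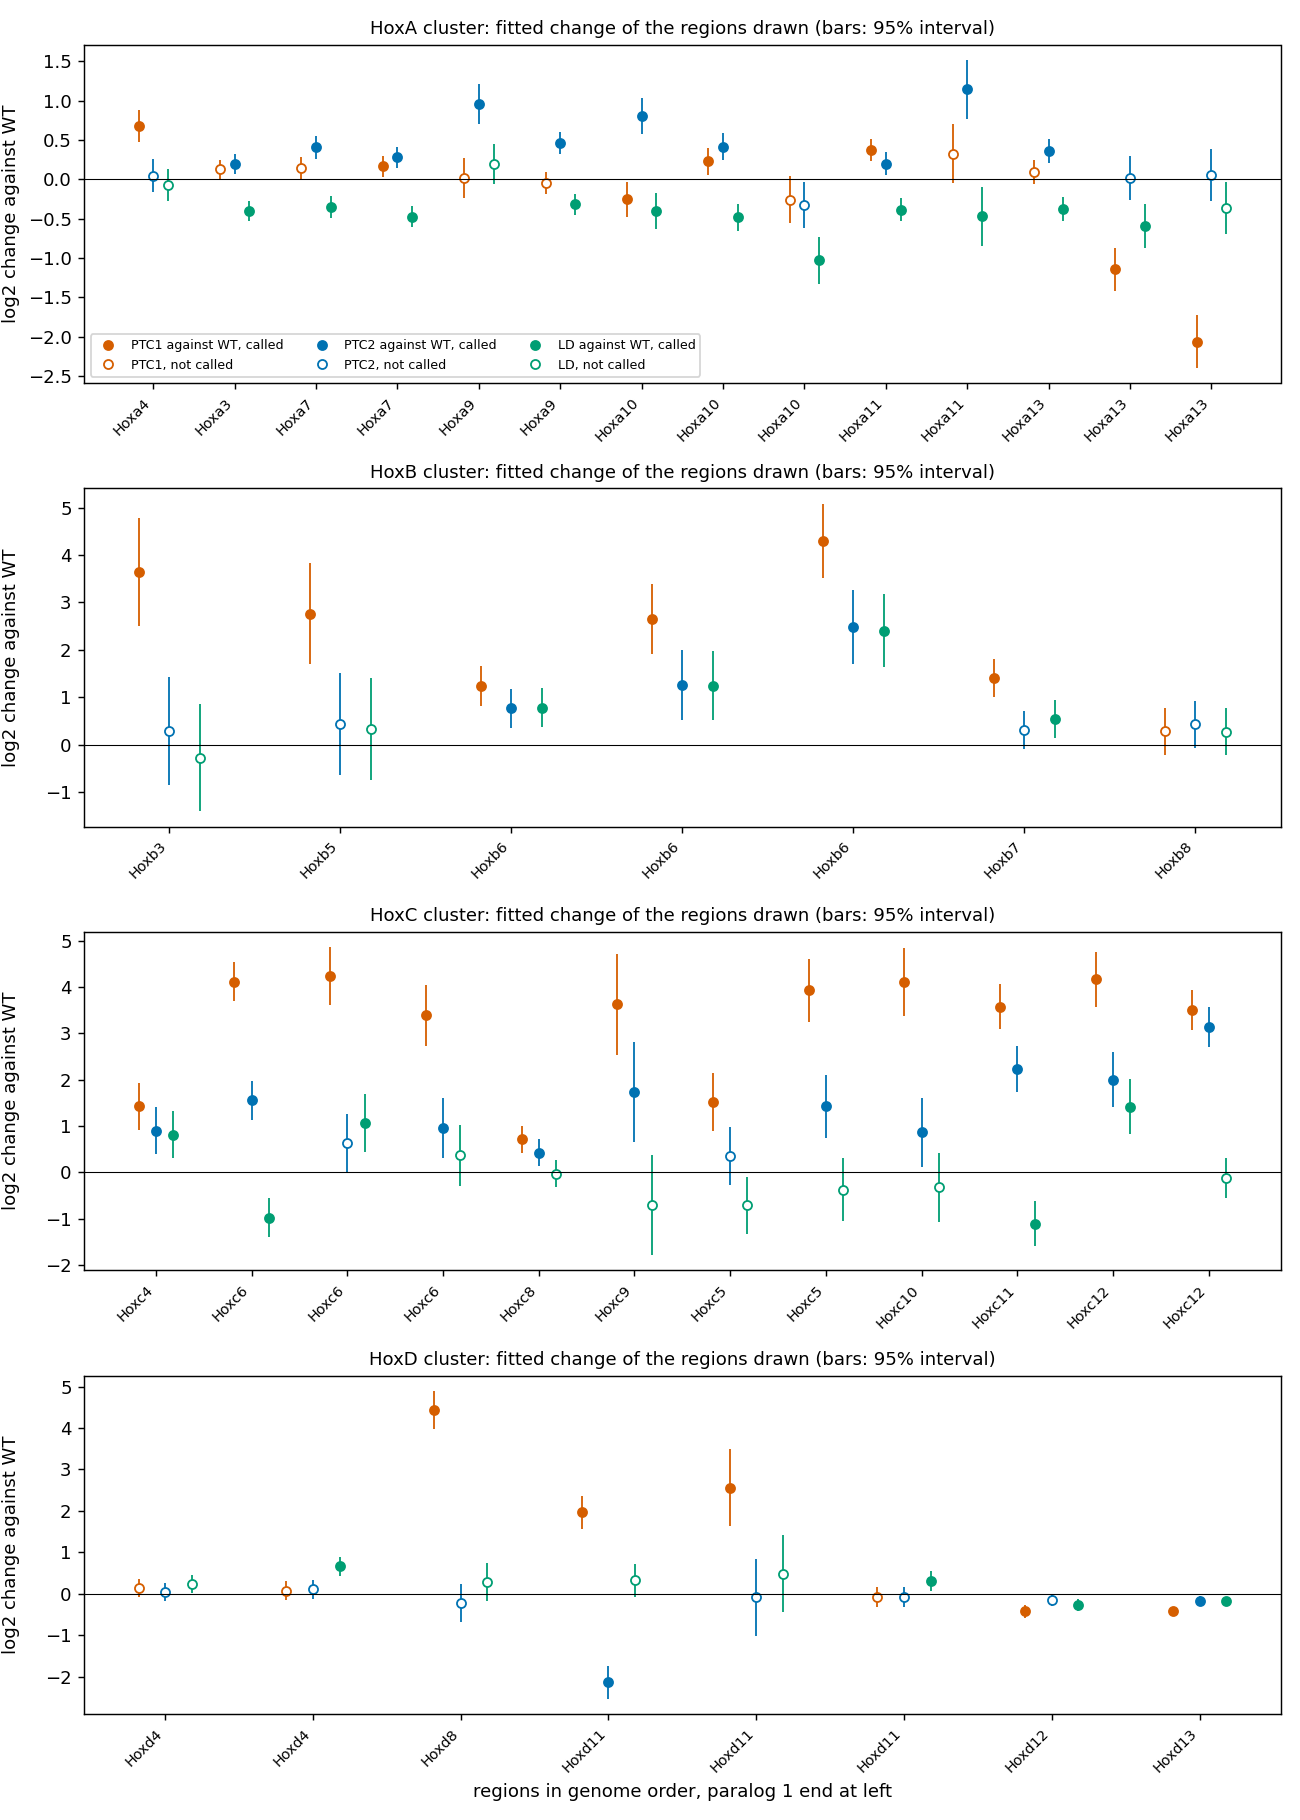
Fitted log2 change against WT (points, with 95% intervals) of HOX regions (those of 1 HoxA gene not drawn) in genome order, for PTC1, PTC2 and LD. Filled points passed the adjusted p of 0.05; HoxC points of PTC1 all lie above 0, and those of PTC2 are highest at the Hoxc11 and Hoxc12 end.

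HoxC (chromosome 15, 102931780 to 103013953, mm10) rose along its whole length in PTC1, at all 12 regions, with a median log2 change of 3.60 and a range of 0.71 to 4.23. In PTC2, 10 of 12 rose (median 1.19) and none fell, and in LD 3 rose and 2 fell (median -0.22; 4 fell without LD replicate 2). Of all regions, 30.6% rose in PTC1 and 28.4% in PTC2. The LD counts are near the shares of all regions, 22.6% higher and 24.7% lower. The flanks of HoxC also moved. Over 265 regions within 3 Mb and at least 100 kb away, the median change was 0.42 in PTC1, 0.25 in PTC2 and -0.17 in LD. For a second scale, the median log2 level of the flank regions was taken off each library, which is not the same as the median change: it removed 0.48 in PTC1, 0.33 in PTC2 and -0.04 in LD. This left 11 rises in PTC1 and 6 in PTC2. The level of the whole chromosome, taken off likewise, left 11 and 8.

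The largest HoxC rise of PTC1 was at Hoxc6, a gene of the thoracic level, in a region inside the gene (102999040 to 102999487, centre 1007 bp from the start site). WT libraries held 8, 21 and 10 normalized reads there, PTC1 256, 237 and 235, PTC2 25, 21 and 13, and LD 37, 20 and 24. PTC1 stood apart from all other libraries, while PTC2 overlapped WT. The log2 change was 4.23 in PTC1 (SE 0.31, adjusted p = 7.85e-13), 0.63 in PTC2 (SE 0.31, adjusted p = 0.0801) and 1.07 in LD (SE 0.31, adjusted p = 0.00506). The PTC2 change passed the threshold after median scaling (0.72), and also on leaving out WT replicate 2 (1.01) or PTC2 replicate 3 (0.88).

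The HoxC region with the highest mean over all libraries was also listed with Hoxc6 (103002094 to 103003082, inside the gene). Its values were 61, 60 and 42 in WT, 1024, 824 and 1011 in PTC1, 155, 169 and 155 in PTC2, and 34, 16 and 35 in LD. None of the groups overlapped, and they ran from LD through WT and PTC2 to PTC1. Log2 changes were 4.12 in PTC1 (SE 0.20, adjusted p = 1.32e-16), 1.56 in PTC2 (SE 0.20, adjusted p = 1.36e-07) and -0.97 in LD (SE 0.20, adjusted p = 0.000225). At the Hoxc6 start site itself (102998064 to 102998260), the WT mean was 11.7, and means of 129, 23.3 and 16 stood for PTC1, PTC2 and LD, with rises of 3.39 and 0.96 in the premature stop groups.

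Hoxc11 and Hoxc12, posterior genes of the hindlimb and tail level, carried the largest HoxC rises of PTC2. Upstream of Hoxc12 (102931780 to 102932580, centre 4577 bp from the start site), WT held 21, 18 and 20, PTC1 223, 219 and 258, PTC2 179, 200 and 163, and LD 14, 16 and 26. The premature stop groups lay far above WT and LD, and WT and LD overlapped. Changes were 3.50 in PTC1 (SE 0.21, adjusted p = 1.27e-14) and 3.13 in PTC2 (SE 0.21, adjusted p = 1.83e-13). PTC1 exceeded PTC2 there by 0.37 (SE 0.21, adjusted p = 0.129), a difference that did not pass the threshold over all groups but did in the fit on those groups alone (adjusted p = 0.0117).

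Nearer to Hoxc12 (102934895 to 102935301), values were 12, 19 and 6 in WT, 209, 226 and 221 in PTC1, 49, 50 and 45 in PTC2, and 22, 46 and 31 in LD. All mutant libraries lay above WT, with PTC1 far highest, and PTC2 and LD overlapped. LD rose here by 1.42 (SE 0.29, adjusted p = 0.000175), its largest HoxC rise, while PTC1 rose by 4.17 (adjusted p = 3.02e-13) and PTC2 by 2.00 (adjusted p = 7.47e-07). At Hoxc11 (102953052 to 102953965) the values were 17, 37 and 36 in WT, 322, 376 and 355 in PTC1, 132, 148 and 131 in PTC2, and 16, 14 and 9 in LD. The LD libraries all lay below the WT libraries. PTC1 rose by 3.58 (adjusted p = 1.33e-13), PTC2 by 2.23 (adjusted p = 3.44e-09), and LD fell by 1.10 (SE 0.24, adjusted p = 0.000351).

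Between Hoxc6 and Hoxc11 the regions that the file lists with Hoxc9, Hoxc5 and Hoxc10 started from low values. The Hoxc10 region (102963607 to 102963957) held 13, 6 and 5 in WT, 145, 121 and 171 in PTC1, 16, 15 and 12 in PTC2, and 9, 5 and 4 in LD. PTC1 stood apart there, and PTC2 overlapped WT. Hoxc10, a lumbar and hindlimb gene, rose by 4.12 in PTC1 (adjusted p = 5.31e-11) and by 0.86 in PTC2 (adjusted p = 0.0417). Hoxc9 (102971967 to 102972142) rose by 3.63 and 1.73, from a WT mean of 3 to 48 and 12. Of the regions listed with Hoxc5, the one nearer the file's start site (102968962 to 102969274) rose by 3.93 and 1.43, from 7.67 to 123.7 and 21. The other (102970914 to 102971314) had a WT mean of 24.7 and means of 72 in PTC1 and 30.3 in PTC2. It rose by 1.52 in PTC1, and its PTC2 change of 0.35 did not pass the threshold (adjusted p = 0.338). In RefSeq both regions listed with Hoxc5 lie nearest to the 3′ end of Hoxc10, a posterior gene. They count as central here by the listed gene alone. Hoxc8, a thoracic gene, had the highest WT mean of HoxC, 150, and the smallest PTC1 rise of the cluster, 0.71 (adjusted p = 6.46e-05).

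How far PTC2 went along with PTC1 varied within HoxC. Mean values of PTC2 were 77.4% of those of PTC1 at the distal Hoxc12 region, 22% at the nearer Hoxc12 region and 39% at Hoxc11. They were 9.84% at Hoxc10, 17% and 42.1% at the regions listed with Hoxc5, and 25% at Hoxc9. At Hoxc6 they were 18.1% at the start site, 8.1% at the region of the largest rise and 16.8% at that of the highest mean. The 82% at Hoxc8 and 69% at Hoxc4 stand where PTC1 itself moved little, with log2 rises of 0.71 and 1.42. Posterior HoxC regions summed to 73 ± 9.64 in WT, 996.7 ± 56.6 in PTC1 (13.7 times WT), 392 ± 31.6 in PTC2 (5.37 times) and 73 ± 13.1 in LD. Central regions summed to 261.3 ± 44.2, 1765 ± 155 (6.75 times), 454.7 ± 24.4 (1.74 times) and 237.7 ± 15.5. Much of the central WT sum lay in the Hoxc8 region (mean 150), where PTC1 rose by only 0.71. By the median log2 change the classes were alike in PTC1, 3.63 posterior and 3.66 central, but not in PTC2, 2.00 and 0.79.

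**Figure D4:**
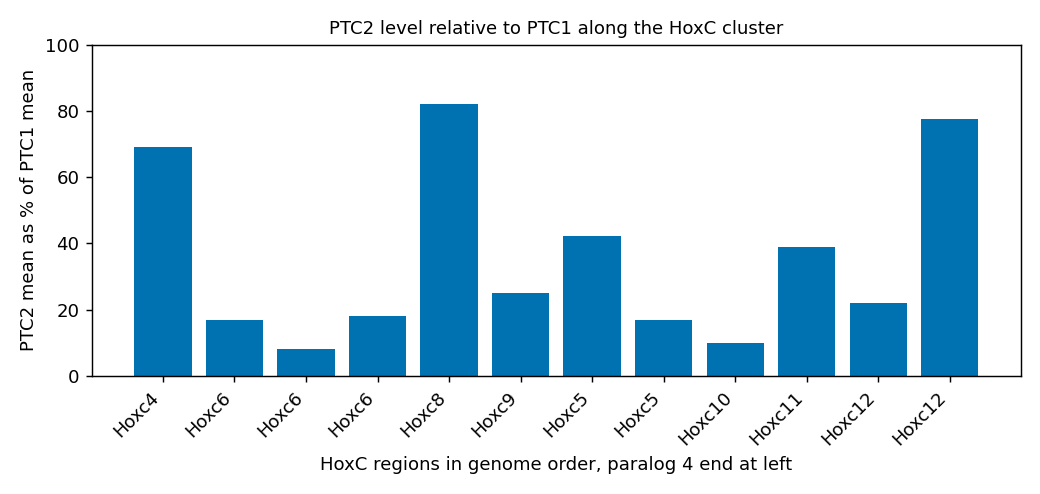
Mean normalized read count of PTC2 as a percentage of that of PTC1 (bars, from 0) for each HoxC region in genome order. Bars are high at Hoxc4, Hoxc8 and the distal Hoxc12 region and lower between them, down to 8.1% within Hoxc6.

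The rest of HoxC moved the same way. Within its bounds lie 6 regions listed with no HOX gene, of which 6 were higher in PTC1 (median 3.08) and 5 in PTC2 (median 1.39), while in LD none was higher and 1 was lower. The region overlapping Hotair, a long non-coding RNA between Hoxc11 and Hoxc12 matched by RefSeq coordinates (102947235 to 102948078), held 13, 21 and 27 in WT, 306, 301 and 349 in PTC1, 81, 66 and 81 in PTC2 and 9, 34 and 27 in LD. It rose by 3.96 in PTC1 (adjusted p = 2.87e-12) and by 1.90 in PTC2 (adjusted p = 3.86e-06). Between Hoxc10 and Hoxc11 a region with no listed gene (102959789 to 102961173) had a mean of 85 for WT, 721 for PTC1, 491.3 for PTC2 and 60.3 for LD. Within 100 kb beyond the posterior end, 9 of 11 regions rose and 1 fell in PTC1, 7 of 11 rose in PTC2, while 7 of 11 were lower in LD.

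HoxB (chromosome 11, 96278489 to 96321975) had low values in WT, and 6 of its 7 regions rose in PTC1 (median log2 change 2.66). In PTC2, 3 rose (median 0.44; 5 without WT replicate 3) and in LD 4 rose (median 0.54), and none fell in any mutant. Its flanks, 431 regions, changed by a median of 0.22, 0.26 and 0.19 in PTC1, PTC2 and LD. The flank level taken off each library removed 0.17, 0.16 and 0.21, and left 6, 3 and 3 rises. The PTC1 rise was not confined to the listed regions. Within 100 kb, 4 of 4 regions on the paralog 1 side rose in PTC1 (median 2.95), as did 2 of 2 on the paralog 13 side (median 1.99).

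The one HoxB start site inside a region belonged to Hoxb6, a thoracic-level gene (96292303 to 96292540). It held 1, 4 and 2 in WT, 67, 60 and 55 in PTC1, 14, 24 and 13 in PTC2 and 19, 13 and 15 in LD. WT lay lowest and PTC1 highest with no overlap, and PTC2 and LD overlapped. Log2 changes of the value plus 1 were 4.31 (SE 0.38, adjusted p = 6.39e-11), 2.48 (SE 0.38, adjusted p = 2.12e-06) and 2.41 (SE 0.38, adjusted p = 5.93e-06). At such low WT values the size rests on the pseudocount, and with a pseudocount of 10 they were 2.52, 1.11 and 1.06.

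Within the Hoxb6 gene body (96294498 to 96295127), values were 39, 71 and 59 in WT, 107, 154 and 133 in PTC1, 116, 78 and 90 in PTC2, and 113, 88 and 85 in LD. Every mutant library exceeded every WT library. The rises were 1.23 (adjusted p = 6.34e-06), 0.76 (adjusted p = 0.00217) and 0.78 (adjusted p = 0.00243) in PTC1, PTC2 and LD. Toward the 3′ end PTC1 stood apart from the overlapping other groups, as Hoxb3, an anterior gene, held 1, 9 and 7 in WT, 51, 69 and 85 in PTC1, 8, 3 and 7 in PTC2 and 4, 8 and 1 in LD (PTC1 against PTC2, 3.36, adjusted p = 4.85e-06). Hoxb8, with the highest mean of the HoxB regions (96278489 to 96279059), held 101, 50 and 132 in WT, 82, 113 and 129 in PTC1, 153, 107 and 101 in PTC2 and 94, 93 and 136 in LD. All groups overlapped there and none of its 3 changes passed the threshold (0.28, 0.43 and 0.27, adjusted p = 0.328, 0.128 and 0.365), though without WT replicate 3 the PTC2 change did (0.73).

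HoxD (chromosome 2, 74667106 to 74716300) had a summed level of 0.906 to 1.02 times that of WT. In PTC1 that total of 1.02 times joined opposite parts. Its posterior regions summed to 0.824 times WT and its central region, at Hoxd8, to 20.8 times. In PTC1, 3 of 8 regions rose and 2 fell, in PTC2 none rose and 2 fell, and in LD 2 rose and 2 fell. Beside the shares of all regions given above (30.6% and 31.2% for PTC1, 28.4% and 29.8% for PTC2, 22.6% and 24.7% for LD), the PTC1 and LD counts are near the background. A single fall was left in PTC2 without WT replicate 2 or PTC2 replicate 2, and a single rise in LD without WT replicate 1, WT replicate 2 or LD replicate 1. The rises of PTC1 lay in the middle of the cluster, at regions of low WT values, at Hoxd8 and Hoxd11, and the falls at the open posterior end. Flanks of HoxD, 212 regions, changed by a median of -0.30, -0.31 and 0.13 in PTC1, PTC2 and LD. Taking off the flank level removed -0.22, -0.47 and 0.17, the PTC2 amount being larger than its median change. On that scale 5 regions rose and 2 fell in PTC1, 5 rose and 1 fell in PTC2, and 1 rose and 2 fell in LD.

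At Hoxd8, a trunk-level gene, the region begins just after the start site and lies wholly in the gene (74704654 to 74706078). It held 31, 35 and 67 in WT, 804, 1001 and 967 in PTC1, 37, 34 and 36 in PTC2 and 46, 39 and 75 in LD. Only PTC1 stood apart, and the other 3 groups overlapped. PTC1 rose by 4.43 (SE 0.23, adjusted p = 3.10e-16), the largest change of any HOX region, and exceeded PTC2 by 4.65 (adjusted p = 6.47e-17). The PTC2 change of -0.22 had an adjusted p = 0.409 and the LD change of 0.29 one of 0.303, and LD passed the threshold without WT replicate 3 (0.62).

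Hoxd11, a gene of the forearm level in the limb, moved in opposite directions in the premature stop groups at its internal start, whose CG-rich promoter is printed above. That region (74681705 to 74682833) held 99, 79 and 75 in WT, 284, 315 and 402 in PTC1, 18, 21 and 16 in PTC2 and 82, 133 and 106 in LD. PTC1 lay above and PTC2 below every other library, and LD overlapped WT. PTC1 rose by 1.97 (SE 0.19, adjusted p = 5.06e-10), PTC2 fell by 2.14 (SE 0.19, adjusted p = 9.90e-11), and they differed by 4.11 (SE 0.19, adjusted p = 2.85e-17). The LD change was 0.32 (adjusted p = 0.171). The upstream Hoxd11 start with few CG (74679196 to 74680608) had a WT mean of 242, beside means of 229.7, 231 and 299 for PTC1, PTC2 and LD. Its changes in PTC1 and PTC2 were both -0.08 (adjusted p = 0.575 and 0.603), and LD rose by 0.30 (adjusted p = 0.0376).

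Hoxd13, which patterns digits and the genital tubercle, had the highest mean of the 44 regions (74667106 to 74668857). It held 3414, 3616 and 3333 in WT, 2600, 2481 and 2629 in PTC1, 3218, 2895 and 3092 in PTC2 and 3214, 2869 and 3049 in LD. All mutant libraries lay below WT, with PTC1 lowest. PTC1 fell by 0.43 (SE 0.05, adjusted p = 4.30e-08), PTC2 by 0.17 (SE 0.05, adjusted p = 0.00623) and LD by 0.18 (SE 0.05, adjusted p = 0.00497). The PTC2 fall depended on the scaling: it turned to 0.03 with the chromosome level and 0.30 with the flank level taken off, was -0.08 at the same median, and missed the threshold without WT replicate 2 (-0.14) or PTC2 replicate 2 (-0.13). Loess normalization took the LD fall to -0.01.

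Next to it, the Hoxd12 region (74672634 to 74673401) held 886, 974 and 955 in WT, 668, 708 and 716 in PTC1, 811, 840 and 896 in PTC2 and 836, 744 and 762 in LD. PTC1 and LD lay below WT, and PTC2 overlapped it. The falls were 0.43 in PTC1 (adjusted p = 8.52e-06) and 0.27 in LD (adjusted p = 0.00329), with -0.14 in PTC2 (adjusted p = 0.0885), which turned to 0.32 with the flank level taken off. Beyond Hoxd13, all 8 regions within 100 kb were lower in PTC1, with a median of -1.30. Among them Evx2, a homeobox gene next to Hoxd13, went from a mean of 594 to 383 (log2 -0.63, adjusted p = 4.35e-06).

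LD differed from the other groups at 1 of the 2 anterior regions of HoxD. The region at the start site that the file lists for Hoxd4 (74711304 to 74712592), which holds the RefSeq Hoxd3 promoter printed above, held 397, 513 and 408 in WT, 461, 497 and 420 in PTC1, 575, 455 and 399 in PTC2 and 773, 649 and 667 in LD. LD lay above all other libraries, which overlapped. It rose by 0.67 in LD (SE 0.11, adjusted p = 1.31e-05), with 0.07 in PTC1 and 0.11 in PTC2 (adjusted p = 0.602 and 0.414). With the flank level taken off, PTC1 (0.29) and PTC2 (0.58) also passed, and the difference between the premature stop mean and LD, -0.58 (adjusted p = 6.15e-06), became -0.06. At the other anterior region, also listed with Hoxd4 (74715756 to 74716300), the LD change of 0.23 did not pass the threshold (adjusted p = 0.0735).

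HoxA (chromosome 6) had high values in every group and changed mostly by less than 1 on the log2 scale, upward in PTC2 and downward in LD. In PTC2, 12 of 17 regions rose and none fell (median 0.28; 28.4% and 29.8% of all regions). In LD none rose and 14 fell (median -0.40; 22.6% and 24.7% of all). In PTC1 5 rose and 4 fell (median 0.12), counts near the 30.6% and 31.2% of all regions. The PTC1 rises numbered 3 without WT replicate 3 or PTC1 replicate 1 and 2 without PTC1 replicate 3. The surroundings beyond 100 kb moved in the same directions. Over 257 flank regions the medians were 0.36 in PTC1, 0.36 in PTC2 and -0.26 in LD, and over all chromosome 6 regions 0.20, 0.08 and -0.35. Within 100 kb, the 7 regions on the paralog 1 side had medians of 0.70, -0.43 and 0.44, opposite to HoxA in PTC2 and LD. The 5 regions on the paralog 13 side had medians of -0.73, 0.63 and -0.18. With the chromosome level taken off, 2 rose and 2 fell in LD, 9 rose and 1 fell in PTC2, and 2 rose and 6 fell in PTC1. Taking off the flank level removed 0.52 in PTC1, 0.23 in PTC2 and -0.10 in LD, amounts that differ from the median changes. On that scale the counts were 0 and 12 in LD, 6 and 1 in PTC2, and 0 and 13 in PTC1. Loess normalization gave 8 rises in PTC1 and scaling to the same median gave 3.

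The largest HoxA rise of PTC1 was beside the Hoxa4 start site (52191817 to 52192433), with 273, 341 and 315 in WT, 473, 492 and 515 in PTC1, 330, 322 and 305 in PTC2 and 319, 268 and 293 in LD. PTC1 alone stood apart. It rose by 0.68 (SE 0.10, adjusted p = 1.10e-06) and by 0.16 (adjusted p = 0.195) with the flank level taken off. Upstream of Hoxa11, a forearm-level gene (52248258 to 52248465), PTC2 held 175, 168 and 170 against 79, 81 and 71 in WT, 108, 71 and 118 in PTC1 and 64, 46 and 57 in LD. PTC2 lay above all others and LD below WT. The PTC2 rise was 1.14 (SE 0.18, adjusted p = 4.13e-06), and the LD fall of 0.47 (adjusted p = 0.0348) missed the threshold without WT replicate 1 or 2 or LD replicate 2 or 3 (-0.34 at the smallest). It was -0.11 with the chromosome level and -0.37 with the flank level taken off, and missed the threshold in the fit on WT and LD alone (adjusted p = 0.0523). Upstream of Hoxa10 (52243001 to 52243212), LD held 85, 91 and 76 against 172, 183 and 163 in WT, 130, 137 and 168 in PTC1 and 127, 140 and 145 in PTC2. LD lay lowest by far, with a fall of 1.03 (SE 0.14, adjusted p = 7.58e-07).

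Near the middle of HoxA, regions that the file places inside Hoxa9 and Hoxa10, posterior genes of the trunk and limb, were highest in PTC2. The Hoxa9 region (52227708 to 52228049) is inside the gene by the file's start site, but lies upstream of the RefSeq Hoxa9 start at 52227370 (minus strand). It held 133, 127 and 138 in WT, 136, 137 and 130 in PTC1, 268, 234 and 275 in PTC2, and 147, 149 and 158 in LD. PTC2 alone stood far apart, with a rise of 0.96 (SE 0.12, adjusted p = 1.28e-07). At Hoxa10 (52237731 to 52238150) the values were 302, 308 and 398 in WT, 259, 288 and 291 in PTC1, 521, 582 and 651 in PTC2, and 230, 258 and 270 in LD. PTC2 lay above and the other mutants below WT, with a PTC2 rise of 0.80 (adjusted p = 3.72e-07). By the file's start sites, the start site regions of Hoxa3, Hoxa7, Hoxa10, Hoxa11 and Hoxa13 all rose in PTC2, by 0.19 to 0.41, and all fell in LD, with changes of -0.36 to -0.48. The RefSeq Hoxa7 start, at 52218573, lies in no region listed with a HOX gene. In PTC1 the start site regions of Hoxa10 (0.23) and Hoxa11 (0.37) rose, and the values of 0.12, 0.14 and 0.10 at Hoxa3, Hoxa7 and Hoxa13 did not pass the threshold.

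Upstream of Hoxa13, the most posterior HoxA gene, which acts with Hoxd13 in digits, PTC1 was lower. The outermost region (52265222 to 52265599, centre 4531 bp upstream) held 199, 232 and 228 in WT, 62, 60 and 37 in PTC1, 241, 197 and 251 in PTC2 and 159, 166 and 184 in LD. PTC1 lay far below the rest, and LD below WT by a narrow gap. PTC1 fell by 2.06 (SE 0.16, adjusted p = 4.79e-12), PTC2 changed by 0.06 (adjusted p = 0.772) and LD by -0.37 (adjusted p = 0.0604). The LD value passed the threshold in the fit on WT and LD alone (adjusted p = 0.0155), at the same median, with loess normalization and with a pseudocount of 10. The neighbouring region over the Hottip promoter printed above (52262375 to 52262862) held 312, 276 and 266 in WT, 101, 150 and 138 in PTC1, 330, 258 and 278 in PTC2 and 193, 199 and 173 in LD, with falls of 1.14 in PTC1 (adjusted p = 1.98e-08) and 0.59 in LD (adjusted p = 0.000619). At the Hoxa13 start site itself (52259470 to 52261448) the PTC1 change was 0.10 (adjusted p = 0.271). Within 100 kb beyond, 4 of 5 regions were lower and 1 higher in PTC1.

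**Figure D5:**
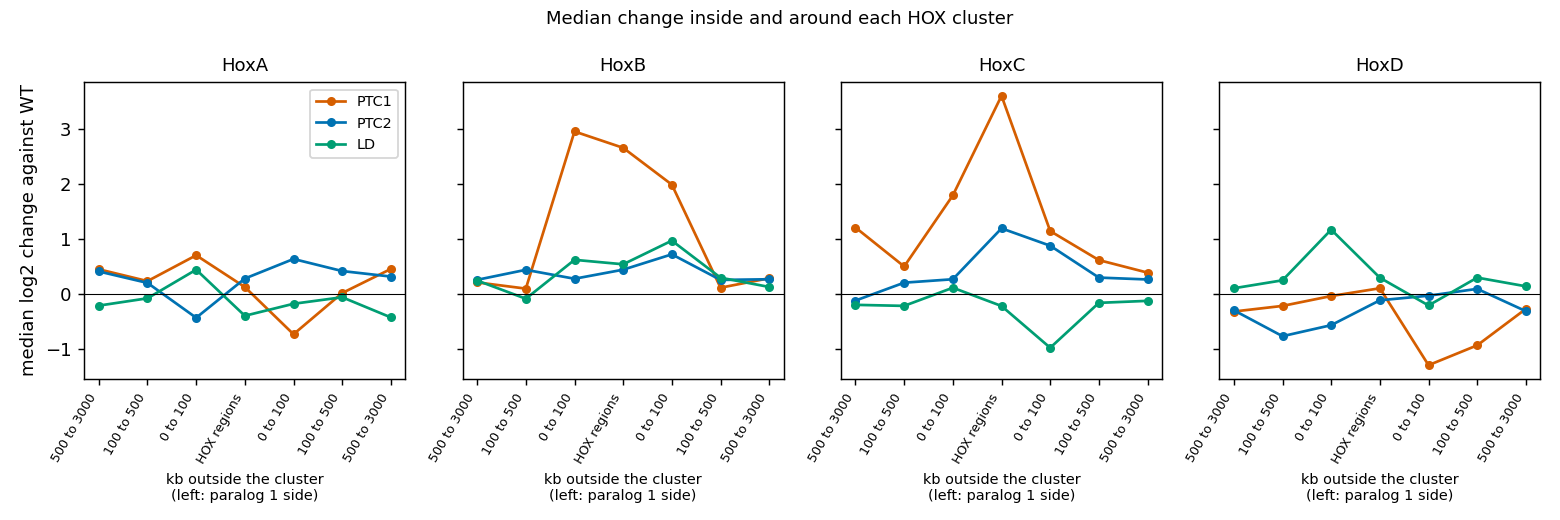
Median log2 change against WT (vertical axis) of the HOX regions of each cluster, centre of each panel, and of other regions by distance in kb outside the cluster, paralog 1 side at left. In PTC1 the HoxC and HoxB medians of 3.60 and 2.66 stand above the flanks beyond 100 kb, whereas HoxA medians lie within the range of their flanks. Some bins hold few regions, down to 1 for HoxD, in the middle bin of the paralog 13 side.

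Posterior and anterior genes were compared within clusters by the median log2 change of paralogs 9 to 13 minus that of paralogs 1 to 4, a description with no test. In HoxA it was -0.17 in PTC1, 0.24 in PTC2 and 0.005 in LD. HoxD gave -0.18, -0.22 and -0.15. HoxC gave 2.20, 1.10 and -1.13, where the anterior class is the Hoxc4 region alone, and HoxB has no posterior region. Over all clusters the counts by class are to be read against the same shares of all regions. Posterior regions were higher at 9 and lower at 5 of 20 in PTC1, 12 and 2 in PTC2, and 2 and 11 in LD. Central regions were higher at 13 and lower at none of 15 in PTC1, 9 and none in PTC2, and 5 and 3 in LD. The falls of posterior regions in PTC1 and both counts of central regions in LD lie near these shares. The 9 anterior regions gave 4 rises and 1 fall in PTC1, 4 rises in PTC2, and 2 rises and 4 falls in LD. The listed gene is not always the closest: 32 of the 44 regions lie nearest to the 3′ end of another gene in RefSeq, and 10 change class by that measure.

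The genes that act on HOX clusters were read at the region nearest their start sites. Counts below are to be read against the shares over 12337 genes given above, whose median changes were 0.03 in PTC1, 0.10 in PTC2 and -0.05 in LD. Among 9 measured genes of Polycomb complex PRC2, which methylates H3K27, 4 rose and 2 fell in PTC1, 4 rose in PTC2, and 2 rose and 3 fell in LD (medians 0.10, 0.12 and -0.12). Its catalytic gene Ezh2 changed by 0.45, 0.39 and -0.58 (adjusted p = 9.15e-09, 1.88e-07 and 1.37e-10). Ezh2 lies on chromosome 6, whose median moved in the same directions. Of 16 PRC1 genes, 6 rose and 4 fell in PTC1, 10 and 1 in PTC2, and 4 and 3 in LD. Kdm2b, whose protein binds CpG islands for a PRC1 variant, fell by 0.79 in PTC1 (adjusted p = 2.95e-08). Of 11 trithorax and H3K27 demethylase genes, 3 rose and 2 fell in PTC1, 2 and 2 in PTC2, and 2 and 3 in LD. Kmt2a, the trithorax methyltransferase of HOX genes, fell by 0.51 in PTC1 (adjusted p = 1.09e-07). It lies on chromosome 9, whose median change in PTC1 was -0.28.

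Of 11 genes of CTCF and cohesin, which set chromatin loops, 5 rose and 2 fell in PTC1, 2 and 4 in PTC2, and none and 7 in LD (median -0.28). The LD falls were led by Stag2 (-1.13, adjusted p = 4.40e-13) and Smc1a (-0.66, adjusted p = 9.72e-11), both on chromosome X, whose median change in LD was -0.52. In the retinoic acid pathway, the main signal upstream of anterior HOX genes, 5 of 11 genes rose and 2 fell in PTC1, 5 and 2 in PTC2, and 4 and 1 in LD. Rarb, a retinoic acid receptor with a WT mean of 239, had means of 21, 32 and 102 in the 3 mutants, and its log2 changes were -3.51, -2.92 and -1.21. Dhrs3, a retinaldehyde reductase, rose by 1.34, 1.00 and 0.55. The TALE cofactors, which bind DNA with HOX proteins, gave 1 rise and 2 falls of 8 in PTC1, 4 and 1 in PTC2, and 2 and 2 in LD. Meis3 rose by 0.57 in PTC1. Among 6 measured upstream activators, 3 rose in PTC1 and in PTC2, and 1 rose and 1 fell in LD. Egr2, a zinc finger factor, rose by 0.38 in PTC1 (adjusted p = 4.99e-07) and by 0.26 in PTC2 (adjusted p = 0.000125).

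Genes of limb and trunk position showed falls in PTC1, with 8 of 13 lower and 2 higher. Pitx1, the hindlimb identity factor, fell by 2.21 (mean 402.7 to 86, adjusted p = 4.88e-17) and Prrx1, a limb mesenchyme factor, by 0.69 (adjusted p = 2.55e-07). In PTC2, 4 rose and 1 fell. The latter was Tbx4, a hindlimb gene with a WT mean of 82.7, which fell in all 3 mutants: its changes were -2.02 in PTC1 (adjusted p = 8.54e-07), -2.78 in PTC2 (adjusted p = 3.00e-09) and -0.80 in LD (adjusted p = 0.027). LD had 5 rises and 2 falls, with Emx2, a gene of the shoulder girdle and urogenital tract, up by 1.97 (adjusted p = 1.14e-07). Among 16 measured genes flanking the clusters, 8 rose and 4 fell in PTC1, 8 and 3 in PTC2, and 1 and 10 in LD. Skap2, beside HoxA, fell by 0.47 in LD (adjusted p = 1.83e-08), on chromosome 6, whose median change in LD was -0.35. The list of 14 non-coding HOX cluster genes had no region under those names.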

How the data were processed

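ATAC-seq libraries of 12 NIH/3T3 samples were read from 1 deposited table of 81995 regions, with coordinates on mm10. Its values are a score by unit name: normalized read counts that the authors scaled by 1 factor per sample and rounded to whole numbers, inferred from regular gaps in each deposited column. Per the submitters' processing notes, Trimmomatic 0.39, STAR 2.7.10a, Picard 2.25.5 and DESeq2 1.30.1 are named without saying what each did. For the peak caller, any Tn5 shift and the read filters, the answer is not given in the sources used here, and a peak set shared by all samples favours regions open in at least 1 group. From the gaps, 25 to 45 M reads in regions per library were estimated, and the noise grows at the few-read values of HoxB and HoxC.

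Each region's share inside its listed gene, a fraction, and its distance to the start site were taken from the deposited table. HOX regions were those whose listed gene name starts with Hoxa, Hoxb, Hoxc or Hoxd and a digit. The members, gene lists and tests were chosen with earlier results of these data known. As the table holds scaled values and not raw counts, a log-scale test replaced the count test: limma 3.58.1 (R 4.3.3) fitted log2(value + 1) with 1 mean for each group, all 12 samples and a trended empirical Bayes step, over 81985 regions with a mean of at least 5. A region was called at a two-sided Benjamini-Hochberg adjusted p under 0.05 over all of them. Fold changes are on this scale, which understates changes of low values. Intervals are 95%. The fit was tested on simulated data. Values per library are printed for the largest called rise and fall per cluster and comparison with WT (where the higher group averaged 20 or more) and the most open region per cluster. Hoxb3, Hoxa9, the Hoxa10 region inside the gene, Hoxc5, Hoxc8, Hoxc9, Hoxc10, the Hoxc6 and Hoxa13 start site regions, the upstream Hoxd11 start, the other Hoxd4 region and the regions at Hottip, at Hotair and between Hoxc10 and Hoxc11 were added after their values were seen. From each gene list, up to 2 genes per comparison with the lowest adjusted p were eligible. List genes were matched by symbol, or by an older symbol that no other gene bears. Alternatives were other scalings, centring on the chromosome or on flanks (3 Mb, 100 kb gap), pseudocount, filters, groups fitted, a replicate block, each replicate left out and other paralog classes. The class by nearest 3′ end was chosen after seeing the data. Values of 1 HoxA gene and 1 upstream activator are not reported here, though the counts include them.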

Additional observations from a re-analysis of the deposited data

Results flagged for a closer look

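At 7 of the HOX regions reported here, called changes of mutant groups ran in opposite directions against WT. The difference itself also passed a test (limma, adjusted p under 0.05). As opposite calls picked the regions, that outcome was nearly fixed in advance and adds no separate support. The share of all regions with such opposite calls was not counted. At the internal start of Hoxd11 (74681705 to 74682833), PTC1 rose and PTC2 fell, and PTC1 minus PTC2 was 4.106 on the log2 scale (adjusted p = 2.85e-17). At Hoxa10 (52237731 to 52238150) PTC1 fell and PTC2 rose, and the same difference was -1.059 (adjusted p = 1.50e-09). At the other 5, both premature stop groups rose and LD fell. There the premature stop mean minus LD was 4.009 at Hoxc11, 3.813 at Hoxc6 (103002094 to 103003082), 0.8009 at the Hoxa10 start site, 0.6967 at Hoxa7 (52225643 to 52227199) and 0.6697 at the Hoxa11 start site. The flanks of HoxA differed by a median of 0.58 in the same direction. With the flank level taken off, 0 HoxA regions rose in PTC1, so the opposite directions of PTC1 and LD at these HoxA regions were lost. With the chromosome level taken off, only 2 HoxA regions fell in LD. Regions where PTC2 rose and LD fell while PTC1 was not called are not counted, as PTC2 against LD was not tested.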

How the results depend on the processing

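Over all 44 regions, the counts of calls that moved by over 1.5 times were those of falls. Within clusters counts of rises moved too: HoxA in PTC1 from 5 to 8 (loess), 3 (same median), 2 (chromosome) and 0 (flanks), HoxA in PTC2 from 12 to 6 (flanks), HoxC in PTC2 from 10 to 6 (flanks), HoxD in PTC1 from 3 to 5 (flanks), and HoxD in PTC2 from 0 to 2 (chromosome) and 5 (flanks). PTC1 falls went from 6 to 15 with the flank level taken off. PTC2 falls went from 2 to 1 at the same median and were 1 to 2 with a library left out, with 1 without WT replicate 2 or PTC2 replicate 2. LD falls went from 18 to 6 with the chromosome level taken off. Regions lower in the premature stop mean than in LD went from 5 to 3 at the same median, 3 with the chromosome and 2 with the flank level taken off, and were 3 to 5 with a library left out, 3 without PTC1 replicate 2. The replicate block, for numbers that do not pair the samples (correlation of residuals -0.004 to 0.045 over 18 pairs of equal number, -0.040 to 0.022 over 36 others), left these counts against WT as they were: PTC1 26 rises and 6 falls, PTC2 25 and 2, LD 9 and 18. Under it PTC1 exceeded PTC2 at 19 regions in place of 20, and the call at Hoxb6 (96294498 to 96295127) between them was lost.

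The posterior minus anterior value moved beyond the spread between replicates in these cases. HoxA in PTC1 became 0.0014 and HoxD -0.50 in PTC1 and -0.85 in LD with 1 region per gene. HoxA in PTC2 became 0.13 with paralogs 10 to 13 as posterior and 0.28 by the nearest 3′ end. HoxA in LD became -0.14 with loess normalization and ranged from -0.059 to 0.026 with a library left out (-0.059 without WT replicate 1). HoxC in PTC2 became 0.73 with a pseudocount of 10 and ranged from 0.77 (without WT replicate 3) to 1.33 (without WT replicate 2). HoxD in LD ranged from -0.63 (without WT replicate 2) to -0.13.

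Directions that turned were all small changes or changes near the level of the surroundings. At Hoxa4, LD became 0.29 (chromosome) and the mean minus LD -0.056 (chromosome) and -0.035 (flanks). The mean minus LD became 0.11 (flanks) at Hoxd11 (74681705 to 74682833), 0.30 (chromosome) and 0.50 (flanks) at Hoxd12, and 0.0035 (same median), 0.20 (chromosome) and 0.40 (flanks) at Hoxd13. PTC2 became 0.32 (flanks) at Hoxd12 and 0.034 (chromosome) and 0.30 (flanks) at Hoxd13. The cause was not tested. With 3 libraries a group, HoxB and HoxC regions of a few reads in WT have fold changes that depend on the pseudocount, and their intervals do not cover differences between lines.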
